A study of Mus musculus with 21 samples.

Results

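Cultured mouse adipocytes given the cytokine tumour necrosis factor (TNF) for 24 h were compared with the same kind of cells treated for 2 h. The comparison used 6 of the 21 arrays of the series, the 3 labelled as 24 h of TNF and the 3 labelled as 2 h of TNF. They are 3T3-L1 cells, a mouse fibroblast-like line that turns into fat cells in culture, differentiated for 14 days. TNF was added 24 h or 2 h before harvest. The labels call the replicates biological and give neither the dose of TNF nor a vehicle. Further groups used for reference were Dex 24 h and Dex 2 h (20 nM dexamethasone, a synthetic glucocorticoid) and an untreated control at 0 h, with 3 arrays each. Arrays of TNF 6 d and Dex 6 d (6 days of TNF or of 20 nM dexamethasone) entered the model that pools the spread. TNF 6 d values are also shown for some genes. The study asked how transcripts change with time as adipocytes become insulin resistant. A single cell line without other tissue cells limits these groups as a model of fat tissue.

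TNF binds its receptors on the cell surface and activates a kinase complex that releases the transcription factor NF-kB from its inhibitors. NF-kB then switches on a first set of genes within hours, and this set includes its own inhibitors, which restrain the signal. Some first-wave products are themselves transcription factors or cytokines. Interferon-stimulated genes, which respond to STAT and IRF transcription factors, are a well-known later set in several cell types. In adipocytes TNF is also known for lowering genes of fat storage and insulin response.

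Values are log2 expression as deposited, and a difference is TNF 24 h minus TNF 2 h ± SE (standard error, n = 3 arrays in each group) unless another comparison is named. A gene was called when its limma p, adjusted over the 12118 genes tested, was below 0.05. A group mean under 5.33 counts as near background (the median over all arrays), and a difference against such a group is a lower limit on its size. A gene rose or fell where it was called higher or lower at 24 h than at 2 h. Counts of list members that rose or fell stand against 12% and 10.2% of all genes tested. Members outside the naming rule, given to complete counts of 5 or fewer, were chosen after their values were seen. The same 2 groups were also set against the control to tell early from late changes. The only control was at 0 h. In these comparisons TNF therefore cannot be told apart from handling or time in culture. These comparisons share arrays, so the resulting classes are a description and their overlaps were not tested.

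Adipocyte markers were high on the 6 arrays. Adipoq, Fabp4 and Lpl, which encode adiponectin, a fatty acid carrier and lipoprotein lipase, had group means of 14.43 to 14.91 in both TNF groups. The adipocyte markers Pparg, Slc2a4 and Cebpa had 8.85 to 12.09. Preadipocyte or fibroblast markers were also present, with Pdgfra, Pdgfrb and Dlk1 at 9.66 to 12.46 and Thy1 at 7.97 to 7.99, while Cd34 was near background. The defining leukocyte genes Adgre1, Ptprc and Itgam and the endothelial genes Pecam1, Cdh5 and Tek were below 5.33 on every array of TNF 24 h, TNF 2 h and control. Other markers of these cell types were above it on every array, namely the leukocyte genes Csf1r (6.44 to 7.52) and Cd3e (5.92 to 6.36) and the endothelial gene Kdr (6.51 to 6.85). Correlations between replicates within each TNF group were 0.989 or higher. RNA quality was judged from Actb and Gapdh, whose 3' minus 5' signal was 0.683 for TNF 24 h replicate 3 and 0.736 for TNF 2 h replicate 2, against 0.083 to 0.165 on the other 4 arrays. List counts above 3 are also given without these 2 arrays where they differ by more than 1.5 times. List counts of 3 or fewer changed by at most 1 when 1 TNF array was left out, which took some counts of 1 to 0. TNF 6 d replicate 2, which belongs to neither group, stood apart (3' minus 5' signal 2.00) and was left out of the model. With it, as the model of all 21 arrays, the pooled spread was wider and fewer genes were called.

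Many early TNF targets and genes of fat storage and mitochondria fell between 2 h and 24 h, and many antiviral, antigen presentation and acute phase genes rose. Of 12118 genes tested, 2693 (22.2%) were called, 1455 (12%) higher at 24 h and 1238 (10.2%) lower. At least 2-fold, 269 genes (2.22%) were higher and 181 (1.49%) lower. The median difference over all genes was 0.016. With all 21 arrays in the model 691 genes were called, and with only the 2 groups compared 1149. The arrays of the 2 groups did not overlap for 3726 genes (30.7%), of which 2531 were called. Against control, 3115 genes (25.7%) were called at 24 h and 1301 (10.7%) at 2 h.

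Among the 1455 genes that rose, 890 (61.2%) were higher at 24 h than in control and not called lower at 2 h, and are named late risers. A further 160 (11%) had fallen below control at 2 h and were not called above it at 24 h, 9 (0.619%) did both and 396 (27.2%) did neither. Among the 1238 genes that fell, 320 (25.8%) had risen above control by 2 h, and 124 of those were still called higher than control at 24 h. Another 728 (58.8%) were below control at 24 h without an early rise and are named late fallers, 10 (0.808%) did both and 180 (14.5%) did neither. Neither name excludes a change in the same direction by 2 h, and members with such a change were not counted apart. The late riser Ccl5 was already at least 4.47 above control at 2 h and the late riser Hpx 4.73, and the late faller Gpat3 differed from it by -0.88. Of the genes that rose at least 2-fold 241 were late risers, and of those that fell at least 2-fold 85 were early risers that declined and 84 late fallers.

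**Figure D1:**
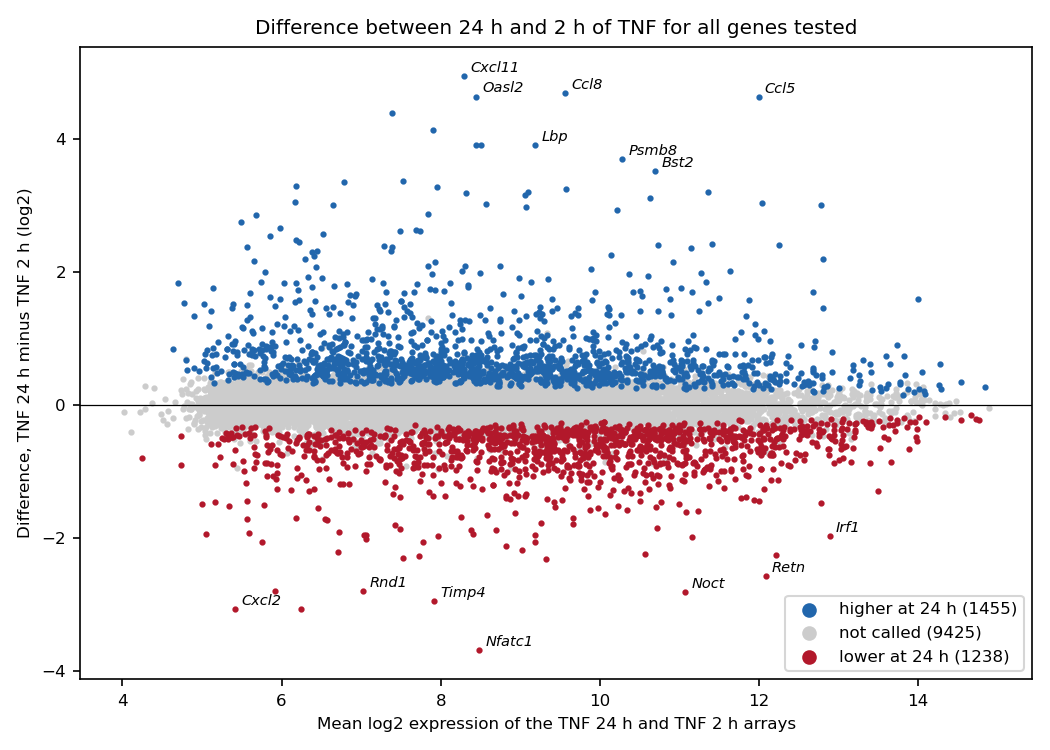
Difference of each gene tested, TNF 24 h minus TNF 2 h (log2, vertical axis), against the mean log2 expression of the 6 arrays (horizontal axis); blue points were called higher at 24 h, red points lower, grey points not called. The 1455 blue points reach 4.95 (Cxcl11) and the 1238 red points reach -3.69 (Nfatc1).

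Stretches upstream of 5 genes show the letters searched for in the promoters of early and late genes. Sequences are RefSeq promoters of build GRCm38.p6, read 5′ to 3′ on the gene's strand, 60 bases each. Capitals mark the NF-kB consensus in the first 3. These come from genes called higher than control at 2 h of TNF and lower at 24 h than at 2 h. In the last 2, from late risers, capitals mark the core of the interferon-stimulated response element (ISRE), GAAANNGAAA. Both motifs were searched on both strands.
Cxcl1: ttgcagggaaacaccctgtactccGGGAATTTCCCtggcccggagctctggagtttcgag
Cxcl2: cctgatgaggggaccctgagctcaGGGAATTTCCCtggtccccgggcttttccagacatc
Nfkbia: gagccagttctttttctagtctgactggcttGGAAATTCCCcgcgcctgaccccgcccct
Rsad2: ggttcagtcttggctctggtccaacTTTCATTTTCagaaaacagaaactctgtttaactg
Bst2: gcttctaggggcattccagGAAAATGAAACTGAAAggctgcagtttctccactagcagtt
These lie at chr5:90891150-90891209 and chr5:90903778-90903837 (plus strand) for Cxcl1 and Cxcl2, and at chr12:55492648-55492707, chr12:26456538-26456597 and chr8:71537562-71537621 (minus strand) for Nfkbia, Rsad2 and Bst2. The capital run of 11 letters in Cxcl1 and Cxcl2 holds a match on each strand, and the run in Bst2 holds 2 overlapping matches.

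Over the 250 bases before the start, the NF-kB consensus was present in 4.46% of 27018 RefSeq promoters and in 5.53% of the 9778 tested genes with a promoter sequence. Of early risers that declined, 37 of 254 held it (14.6%), and 14 of 64 of those that fell at least 2-fold (21.9%). Late risers held it in 52 of 730 promoters (7.12%). The ISRE core was present in 3.46% of all promoters and in 3.07% of those of tested genes. It was found in 54 of 730 late risers (7.4%), in 21 of 186 that rose at least 2-fold (11.3%) and in 9 of 254 early risers that declined (3.54%). Among interferon-stimulated genes tested with a promoter, 18 of 45 held it (40%). A match is a description of the sequence and not a binding site.

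Of the 12 genes with the largest falls, 6 had been called higher than control at 2 h and 6 had not. Nfatc1, a transcription factor of the calcineurin pathway, had 6.54, 6.76 and 6.61 at 24 h, against 10.29, 10.67 and 10.02 at 2 h. The control arrays lay at 6.88, 6.64 and 6.97, so the 2 h arrays alone stood high. Nfatc1 was 12.9-fold lower at 24 h (-3.69 ± 0.17, limma adjusted p 5.12e-12) and not called against control at 24 h (adjusted p 0.437).

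Rnd1, a small GTPase that loosens the actin cytoskeleton, had 5.54, 5.77 and 5.59 at 24 h, against 8.58, 8.50 and 8.20 at 2 h. It fell 6.92-fold (-2.79 ± 0.11). Tnfaip2, a gene first found as TNF-induced, had 11.05, 10.75 and 11.43 at 24 h, against 13.19, 13.56 and 13.26 at 2 h, and 8.13, 8.49 and 8.79 in control. Its fall of 2.26 ± 0.21 left it well above control (adjusted p 7.13e-09). Has2, which makes hyaluronan, fell by 2.30 ± 0.13, with 24 h arrays at 6.21 to 6.54 and 2 h arrays at 8.50 to 8.78. Gadd45b, a stress gene that restrains JNK signalling, fell by 2.23 ± 0.19.

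Noct and Pfkfb3 were below control at 24 h after lying above it at 2 h. Noct, nocturnin, a phosphatase with circadian expression, had 9.57, 9.86 and 9.58 at 24 h, against 12.45, 12.70 and 12.29 at 2 h, and 10.96, 11.09 and 10.75 in control. All 3 groups were apart, and the difference was -2.81 ± 0.15 (limma adjusted p 4.46e-11). Pfkfb3, which makes the activator of the glycolytic step at phosphofructokinase, differed by -2.18 ± 0.15. The other probe set of Pfkfb3 differed by -0.41.

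Of 15 inhibitors of NF-kB signalling tested, 6 fell, 1 rose and 8 were not called, against 10.2% lower and 12% higher of all genes, with a median difference of -0.369. Against control 12 were higher at 24 h (13.2% of all genes) and 11 at 2 h (6.61%). The count of 6 was 3 with all 21 arrays in the model. Nfkbia, the classical inhibitor IkB-alpha, had 13.70, 13.71 and 13.78 at 24 h, against 14.20, 14.24 and 14.22 at 2 h. The control lay at 11.93, 11.91 and 11.49, so both TNF groups were high and did not overlap (-0.49 ± 0.10, limma adjusted p 0.00132). Other probe sets of Nfkbia differed by -0.58, -0.91, -1.15 and 0.10.

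Tnfaip3 encodes A20, a ubiquitin-editing brake on TNF receptor signalling. It had 11.09, 11.22 and 10.90 at 24 h, against 12.40, 12.59 and 12.41 at 2 h, and 7.50, 7.87 and 7.48 in control. Its difference was -1.40 ± 0.15, and it stood 3.45 above control at 24 h and 4.85 above it at 2 h. Zfp36, which speeds the decay of cytokine mRNAs, fell by 1.77 ± 0.15, and Nfkbiz, an atypical IkB in the nucleus, fell by 1.61 ± 0.12. The member that rose was Nlrc5 (1.83 ± 0.12), an NLR protein best known as the transactivator of class I genes, with 8.16 to 8.23 at 24 h and 6.28 to 6.50 at 2 h.

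Of 21 TNF receptors, adaptors and NF-kB subunits tested, 5 rose (Ikbke, Tnfrsf1b, Tradd, Ikbkg and Ikbkb) and 7 fell, with a median of -0.248. In the model of all 21 arrays 1 rose and 3 fell. The calls of Ikbkg, Ikbkb and Tnfrsf1b rest on their probe sets of highest mean (0.50, 0.43 and 0.66). Other probe sets above the level threshold differed by -0.44 to 0.06 for Ikbkg, by -0.40 to 0.16 for Ikbkb and by -0.01 for Tnfrsf1b. Rel, the c-Rel subunit, had 4.55, 4.55 and 4.63 at 24 h, against 6.22, 6.36 and 5.72 at 2 h. The 24 h level is near background, so its fall of 1.52 ± 0.14 is a lower limit. Traf5, an adaptor of TNF family receptors, fell by 1.34 ± 0.15, and Ikbke, an IkB kinase-related enzyme that also acts upstream of IRF factors, rose by 1.08 ± 0.12.

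Immediate early genes and their phosphatases, the fast responders to many stimuli, fell in 16 of 46 cases and rose in 8 (7 and 2 with all 21 arrays). The 16 and 8 are 34.8% and 17.4% of the list, against 10.2% lower and 12% higher of all genes. The 8 rises became 5 without TNF 24 h replicate 1 or without TNF 2 h replicate 1. Junb, an AP-1 subunit, had 8.58, 8.25 and 8.19 at 24 h, against 8.99, 8.75 and 9.24 at 2 h, and 5.06 to 5.44 in control. It fell by 0.65 ± 0.16 and remained far above control on all 3 arrays. Jun fell by 0.88 ± 0.14 and Dusp16, a phosphatase of JNK, by 1.26 ± 0.14. Klf6, a zinc finger factor, had 10.40, 10.32 and 8.22 at 24 h, against 11.30, 10.50 and 11.05 at 2 h. Its difference of -1.30 ± 0.40 was -0.59 (adjusted p 0.138) without TNF 24 h replicate 3, and it was also no longer called without TNF 2 h replicate 1 (-1.12) or 3 (-1.25). Fos went the other way (0.57 ± 0.16, limma adjusted p 0.0115), and without TNF 24 h replicate 1 it was 0.47 (adjusted p 0.0596). Egr1 (0.51 ± 0.18, adjusted p 0.0504) was not called.

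Chemokines divided by time. Of 21 tested, 9 (42.9%) rose and 2 (9.52%) fell, against 12% and 10.2% of all genes, with a median difference of 0.327. Against control 15 were higher at 24 h (13.2% of all genes) and 13 at 2 h (6.61%). Cxcl11, a ligand of CXCR3 on activated T cells, had 10.83, 10.29 and 11.17 at 24 h, against 6.04, 5.51 and 5.88 at 2 h, with 4.98 to 5.45 in control. It was high at 24 h alone, 31.0-fold over 2 h (4.95 ± 0.27, limma adjusted p 4.22e-11), which was the largest called difference whose arrays did not overlap. Ccl8, a monocyte attractant, had 11.62, 11.29 and 12.81 at 24 h, against 6.83, 6.81 and 7.98 at 2 h (4.70 ± 0.31).

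Ccl5, a T cell and monocyte attractant also called RANTES, was above control at 2 h and higher again at 24 h. Its arrays read 14.25, 14.18 and 14.50 at 24 h, against 9.67, 9.32 and 10.05 at 2 h, and 5.16 to 5.25 in control. The difference was 4.64 ± 0.21 between the TNF groups, after an early rise of 4.47 ± 0.21 over control. The control level is near background, so that early rise is a lower limit.

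The chemokines that fell were the neutrophil attractants Cxcl1 and Cxcl2. Cxcl1 had 9.68, 9.55 and 10.11 at 24 h, against 11.16, 11.31 and 11.20 at 2 h, and 8.25 to 8.31 in control (-1.44 ± 0.13). Cxcl2 had 3.91, 3.84 and 3.90 at 24 h, against 7.63, 6.86 and 6.36 at 2 h. The control arrays lay at 3.79 to 4.05, so Cxcl2 was back near background, and the difference of -3.07 ± 0.20 is a lower limit.

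Other early chemokines stayed high. Cxcl10, another CXCR3 ligand, had 13.19, 13.09 and 12.42 at 24 h, against 13.68, 12.90 and 13.63 at 2 h, and 5.22 to 5.56 in control. The 2 TNF groups overlapped (-0.51 ± 0.23, limma adjusted p 0.131). Ccl2, the main monocyte attractant, differed by 0.33 ± 0.20 (adjusted p 0.266) and stood 6.77 above control at 24 h and 6.44 above it at 2 h. Vcam1, a leukocyte adhesion molecule, likewise had 13.51, 13.50 and 12.95 at 24 h, against 13.28, 13.22 and 13.54 at 2 h. The difference was -0.03 ± 0.14 and its sign changed between settings. Other probe sets of Vcam1 differed by -0.78 and 0.09.

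Cytokines and secreted growth factors moved both ways, with 5 of 24 higher (Il33, Vegfc, Inhbb, Il34 and Fst) and 5 lower (Csf2, Il15, Tnfsf9, Il6 and Csf1). Each count is 20.8% of the list, against 12% higher and 10.2% lower of all genes. The call of Csf1 rests on its probe set of highest mean (-0.45). Another probe set of Csf1 differed by -0.65, and 2 went the other way (0.84 and 1.66). Il33, an alarmin, had 6.41, 5.41 and 8.45 at 24 h, against 3.91, 4.32 and 4.90 at 2 h. The 24 h arrays spread widely and the 2 h level is near background (2.38 ± 0.48, and 1.53 without TNF 24 h replicate 3). Vegfc, a lymphatic growth factor, rose by 2.15 ± 0.16. Csf2, which encodes GM-CSF, had 4.87, 4.91 and 5.31 at 24 h, against 6.73, 6.00 and 6.86 at 2 h, so its fall ended near background. Il6 had 8.25, 8.05 and 8.70 at 24 h, against 8.97, 8.54 and 10.50 at 2 h, and 4.74 to 5.29 in control. These overlapped, and the difference of -1.0 ± 0.32 was -0.42 (adjusted p 0.183) without TNF 2 h replicate 3, -0.96 (adjusted p 0.0713) without TNF 24 h replicate 1 and -0.86 (adjusted p 0.0945) without TNF 24 h replicate 2. The count of cytokines that fell was 3 without any 1 of those 3 arrays, and 2 with all 21 arrays.

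Most interferon-stimulated genes rose late. Of 59 tested, 43 rose and 2 fell, against 12% and 10.2% of all genes, and the median difference was 1.325. Against control 56 were higher at 24 h and 27 at 2 h. The count of those that rose was 32 with all 21 arrays and 45 without the arrays of high 3' minus 5' signal.

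Oasl2, an oligoadenylate synthetase-like antiviral protein, had 11.08, 10.89 and 10.32 at 24 h, against 6.43, 5.39 and 6.54 at 2 h, and 5.59 to 6.08 in control. Only the 24 h arrays were high, 24.9-fold over 2 h (4.64 ± 0.29, limma adjusted p 3.68e-10). Rsad2, which encodes the antiviral enzyme viperin, had 10.61, 10.67 and 10.10 at 24 h, against 6.68, 6.23 and 6.73 at 2 h. It rose by 3.91 ± 0.17, and at 2 h it was not called against control (adjusted p 0.458). Bst2, the tetherin that holds budding virus on the cell, had 12.44, 12.33 and 12.61 at 24 h, against 9.26, 8.68 and 8.86 at 2 h (3.52 ± 0.17). Zbp1, a sensor of Z-form nucleic acid, rose by 3.92 ± 0.20. Ifit3, which takes part in antiviral translation control, rose by 1.99 ± 0.28, with 24 h arrays at 11.48 to 12.73 and 2 h arrays at 10.09 to 10.40.

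The 2 members that fell were Irf1 and Trim21. Irf1, a transcription factor that drives both interferon and antigen presentation genes, had 11.98, 11.87 and 11.86 at 24 h, against 13.82, 13.92 and 13.88 at 2 h. Control arrays read 10.21, 10.10 and 10.46, so Irf1 peaked at 2 h and was still raised at 24 h (-1.97 ± 0.10, limma adjusted p 3.21e-11). Irf7, a related factor, ran the other way: 8.71, 8.73 and 7.69 at 24 h, against 6.82, 6.45 and 6.79 at 2 h, and 6.64 to 7.06 in control (1.69 ± 0.21).

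Class I antigen presentation genes, which cut, carry and display peptides to T cells, rose in 15 of 16 cases by limma and fell in 0 (0 also at an unadjusted p below 0.05), with a median of 1.036. The count was 7 with all 21 arrays, and leaving out any 1 TNF array gave 15. Psmb8, an immunoproteasome subunit, had 11.94, 11.95 and 12.51 at 24 h, against 8.66, 8.09 and 8.54 at 2 h, and 6.79 to 7.34 in control. It rose 13.0-fold (3.70 ± 0.18, limma adjusted p 9.42e-12). Psmb9, its partner subunit, had 10.59, 10.54 and 10.76 at 24 h, against 7.59, 7.31 and 7.52 at 2 h (3.16 ± 0.14).

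**Figure D2:**
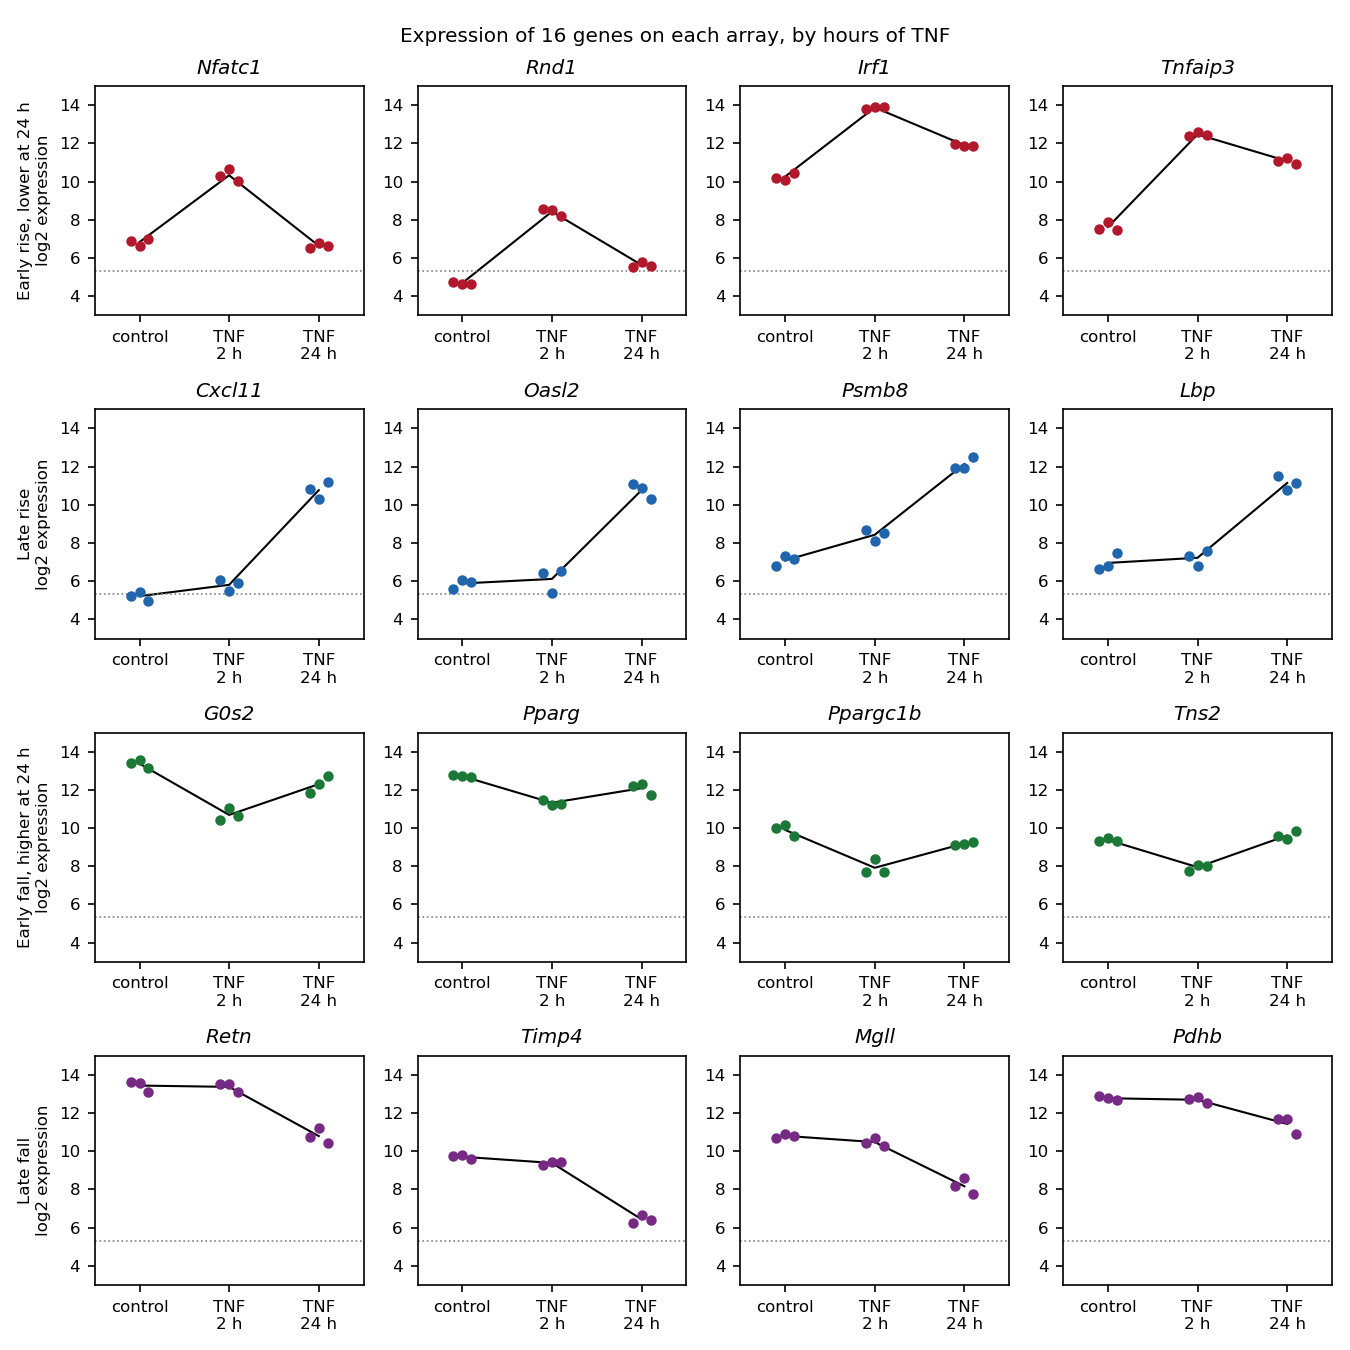
Log2 expression of 16 genes on each of 3 arrays in control, TNF 2 h and TNF 24 h (horizontal axis); points are arrays, lines join group means and the dotted line marks the level threshold of 5.33. Rows show early risers that were lower at 24 h, late risers, early fallers that were higher at 24 h, and late fallers; Irf1 peaks at 2 h while Oasl2 is high only at 24 h.

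Acute phase and complement proteins, which the liver and fat secrete in inflammation, rose in 13 of 23 cases and fell in 2, with a median of 0.641. The 2 that fell were Tnfaip6 and Cd59a. Lbp, which presents bacterial lipopolysaccharide to its receptor, had 11.51, 10.78 and 11.13 at 24 h, against 7.31, 6.81 and 7.56 at 2 h. Its 2 h arrays overlapped the 6.62 to 7.45 of control, so only the 24 h arrays were high (3.92 ± 0.23, limma adjusted p 1.23e-10). Hpx, the haem carrier hemopexin, had 13.66, 13.38 and 13.62 at 24 h, against 10.87, 10.24 and 10.44 at 2 h, and 5.40 to 6.32 in control (3.04 ± 0.19). Lcn2, an iron-siderophore binder, rose by 3.20 ± 0.35.

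Saa3, a serum amyloid, was at 2 h already close to its 24 h level. Its 24 h arrays lay near the highest value of the data, 15.06, and whether the signal was saturated was not tested. It had 14.61, 14.67 and 14.48 at 24 h, against 13.97, 13.94 and 13.99 at 2 h, and 5.94 to 6.74 in control. The groups did not overlap, but the difference of 0.62 ± 0.21 (limma adjusted p 0.0379) had an adjusted p of 0.0553 to 0.0904 when any 1 of the 6 arrays was left out.

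Some cytokine receptors rose. Il13ra2, a decoy receptor for interleukin 13, had 8.97, 8.75 and 9.90 at 24 h, against 6.00, 5.66 and 5.86 at 2 h (3.37 ± 0.21). Osmr, the oncostatin M receptor, had 11.63 to 12.34 at 24 h, against 9.54 to 10.13 at 2 h (2.15 ± 0.18). Among SOCS proteins, STATs and cytokine receptors 6 of 30 (20%) rose and 3 (10%) fell (Stat5a, Ifnar1 and Il15ra), against 12% and 10.2% of all genes. With all 21 arrays 2 rose and 1 fell. Socs3, an inhibitor of cytokine and insulin receptor signalling, was not called (0.62 ± 0.29, limma adjusted p 0.142). Of 18 genes of innate sensing 7 (38.9%) rose and 3 (16.7%) fell (Irak2, Tlr2 and Myd88). With all 21 arrays limma called 1 higher and 0 lower (2 at an unadjusted p below 0.05). Il1rap, a co-receptor for interleukins 1 and 33, rose by 2.09 ± 0.21, and Irak2, a kinase-like adaptor downstream of such receptors, fell by 1.40 ± 0.18.

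Several adipocyte transcription factors fell early and were higher at 24 h than at 2 h. Of 24 tested, 5 rose between the times (Ppargc1b, Nrip1, Pparg, Foxo1 and Srebf1) and 1 fell. Below control were 11 at 24 h (12.5% of all genes) and 10 at 2 h (4.13%). The count of 5 was 2 with all 21 arrays, and Nrip1 was not called without TNF 24 h replicate 2 or TNF 2 h replicate 1 or 3. The member that fell was Dlk1, an inhibitor of adipogenesis. Dlk1 was no longer called when any 1 TNF 24 h array, or TNF 2 h replicate 1 or 3, was left out. With all 21 arrays it was not called either. Pparg, the master regulator of fat cells, had 12.19, 12.32 and 11.75 at 24 h, against 11.45, 11.23 and 11.28 at 2 h, and 12.65 to 12.76 in control. The 24 h arrays lay between the 2 h and the control arrays without overlap (0.77 ± 0.11, limma adjusted p 4.36e-05). Ppargc1b, a coactivator of mitochondrial genes, had 9.10, 9.19 and 9.29 at 24 h, against 7.68, 8.39 and 7.69 at 2 h, and 9.57 to 10.15 in control (1.27 ± 0.19). Cebpa, a partner of Pparg, fell by 1.04 ± 0.19 at 2 h against control, and its difference between the times was 0.20 ± 0.19 (adjusted p 0.50). Dex means were also higher at 24 h than at 2 h for Ppargc1b (10.42 and 8.68) and Nrip1 (12.13 and 10.81). For these 2 genes the TNF and Dex differences were not called unlike (limma interaction adjusted p 0.269 and 0.306). For Pparg and Cebpa they were (adjusted p 0.0166 and 0.0111).

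Other genes also rose after an early fall. G0s2, an inhibitor of the triglyceride lipase ATGL, had 11.84, 12.31 and 12.74 at 24 h, against 10.40, 11.03 and 10.63 at 2 h, and 13.15 to 13.54 in control (1.61 ± 0.19). Tns2, a focal adhesion protein, had 9.57, 9.40 and 9.86 at 24 h, against 7.75, 8.07 and 8.03 at 2 h (1.66 ± 0.14). It was level with the control arrays at 24 h, which read 9.31 to 9.48. Pdk4, which switches off pyruvate dehydrogenase, rose by 1.48 ± 0.18. Irs1, the main insulin receptor substrate of fat cells, differed by 0.48 ± 0.14. It was no longer called without TNF 24 h replicate 2 (0.39, adjusted p 0.0715) or without TNF 2 h replicate 1 (0.34, adjusted p 0.108).

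Most products and markers of the mature adipocyte fell. Of 22 tested, limma called 16 lower at 24 h and 0 higher (1 at an unadjusted p below 0.05), with a median of -0.540. The count was 9 with all 21 arrays and 10 without the arrays of high 3' minus 5' signal. Retn, the adipokine resistin, had 10.76, 11.20 and 10.43 at 24 h, against 13.51, 13.50 and 13.10 at 2 h. Control arrays at 13.12 to 13.61 overlapped the 2 h arrays, and resistin fell 5.96-fold (-2.58 ± 0.16, limma adjusted p 4.38e-10). Aqp7, the glycerol channel, fell by 1.33 ± 0.18. Cidec, a lipid droplet fusion protein, had 11.66, 12.09 and 10.09 at 24 h, against 13.03, 12.43 and 12.72 at 2 h (-1.45 ± 0.30). Without TNF 24 h replicate 3, its lowest array, the difference was -0.85 (limma adjusted p 0.000671). Slc2a4, the insulin-responsive glucose transporter GLUT4, had 9.68, 9.82 and 9.62 at 24 h, against 10.56, 10.31 and 10.30 at 2 h, and 10.74 to 10.96 in control (-0.68 ± 0.11). Adipoq differed by -0.21 ± 0.06 (limma adjusted p 0.00957), and by -0.13 (adjusted p 0.0584) without the arrays of high 3' minus 5' signal.

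In these whole-culture samples, fewer cells of a type and less RNA per cell cannot be told apart. The summed log2 level of 6 adipocyte markers was 73.71 to 75.42 at 24 h, against 74.75 to 75.25 at 2 h and 77.57 to 78.14 in control. The TNF groups overlapped, and 3 of the 6 fell and 1, Pparg, rose. For 5 preadipocyte or fibroblast markers, of which 4 were above the threshold, the sum was 45.34 to 46.26 at 24 h, against 44.63 to 45.75 at 2 h, with Pdgfra and Pdgfrb higher and Dlk1 lower. The call of Dlk1 was lost when any 1 TNF 24 h array, or TNF 2 h replicate 1 or 3, was left out. Of 6 leukocyte markers 3 were above the threshold, and the sum over all 6 was 31.39 to 32.8 at 24 h, against 29.88 to 30.71 at 2 h. Cd68, a lysosomal protein of macrophages that other cells can express, had 6.68, 6.57 and 7.08 at 24 h, against 5.33, 4.85 and 5.36 at 2 h (1.60 ± 0.17). The part of these shifts in the results was not tested.

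Genes of lipid handling fell more often than they rose. Of 30 genes of fatty acid and triglyceride synthesis 13 fell and 4 rose, with a median of -0.371. The 4 that rose were the desaturases Fads1, Fads2 and Fads3 and the reductase Cyb5r3, and with all 21 arrays limma called 0 of the list higher (2 at an unadjusted p below 0.05). The 4 became 2 without TNF 2 h replicate 1 or 3. Thrsp, a promoter of lipogenesis, had 12.26, 12.41 and 11.46 at 24 h, against 13.68, 13.37 and 13.49 at 2 h (-1.47 ± 0.15). Gpat3, which starts triglyceride assembly, had 9.13, 9.37 and 9.01 at 24 h, against 10.58, 10.79 and 10.23 at 2 h, and 11.28 to 11.57 in control (-1.36 ± 0.13). It was thus lowered in both steps.

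Of 20 genes of lipolysis and lipid droplets 12 fell and 2 rose. The 12 became 6 with all 21 arrays and 6 without the arrays of high 3' minus 5' signal. Mgll, which completes the release of glycerol, had 8.16, 8.60 and 7.75 at 24 h, against 10.44, 10.70 and 10.30 at 2 h, and 10.69 to 10.92 in control. It fell late, 4.95-fold (-2.31 ± 0.18, limma adjusted p 8.64e-09). Hcar2, an antilipolytic receptor for hydroxybutyrate and niacin, had 9.43, 9.59 and 8.71 at 24 h, against 10.93, 11.03 and 10.67 at 2 h, and 8.41 to 8.86 in control (-1.63 ± 0.22). It was therefore an early riser, unlike Mgll. The 2 that rose were G0s2 and the droplet coat protein Plin2.

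Most genes of mitochondrial fuel use fell. Of 36 genes of the citric acid cycle and branched-chain amino acid breakdown 31 were lower at 24 h and 1 (Suclg2) higher, against 10.2% and 12% of all genes, with a median of -0.609. Against control limma called 33 lower at 24 h and 0 at 2 h (1 at an unadjusted p below 0.05). The 31 became 9 with all 21 arrays and 29 without the arrays of high 3' minus 5' signal. Pdhb, a subunit of pyruvate dehydrogenase, had 11.67, 11.71 and 10.91 at 24 h, against 12.74, 12.83 and 12.51 at 2 h (-1.27 ± 0.14, limma adjusted p 1.31e-06). Dld, a subunit shared by several such complexes, fell by 1.22 ± 0.20, and Idh3a, of isocitrate dehydrogenase, fell by 1.13 ± 0.15. TNF 24 h replicate 3 was the lowest array of its group for these 3 genes.

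Genes of fatty acid oxidation fell too, with 18 of 28 lower and 2 (Pex11a and Cpt1a) higher and a median of -0.647. The count of 18 was 6 with all 21 arrays. Hadhb, of the mitochondrial trifunctional protein, had 11.29, 11.37 and 10.53 at 24 h, against 12.09, 12.12 and 11.96 at 2 h (-0.99 ± 0.14). Acadvl, the first enzyme for very long chains, had 11.66, 11.65 and 11.31 at 24 h, against 12.41, 12.75 and 12.34 at 2 h (-0.96 ± 0.14). Of 22 genes of cholesterol synthesis 10 fell by limma and 0 rose (0 also at an unadjusted p below 0.05). That count was 5 without the arrays of high 3' minus 5' signal, 5 without TNF 2 h replicate 2, 6 without TNF 2 h replicate 1, and 0 with all 21 arrays (6 at an unadjusted p below 0.05).

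Of 37 genes of insulin signalling and glucose uptake 6 rose and 8 fell, with a median of -0.075 (4 and 4 with all 21 arrays). These are 16.2% and 21.6% of the list, against 12% and 10.2% of all genes. Grb14, which inhibits the insulin receptor, had 8.28, 8.0 and 8.59 at 24 h, against 6.54, 6.81 and 6.82 at 2 h, and 6.50 to 7.16 in control (1.57 ± 0.19, limma adjusted p 3.82e-06). It rose late. Ptpn1, the phosphatase PTP1B that dephosphorylates the insulin receptor, had 10.22, 9.87 and 10.07 at 24 h, against 11.07, 11.12 and 11.10 at 2 h, and 9.28 to 9.69 in control (-1.04 ± 0.11). It was an early riser. Hk2, the insulin-regulated hexokinase, fell by 1.10 ± 0.13.

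**Figure D3:**
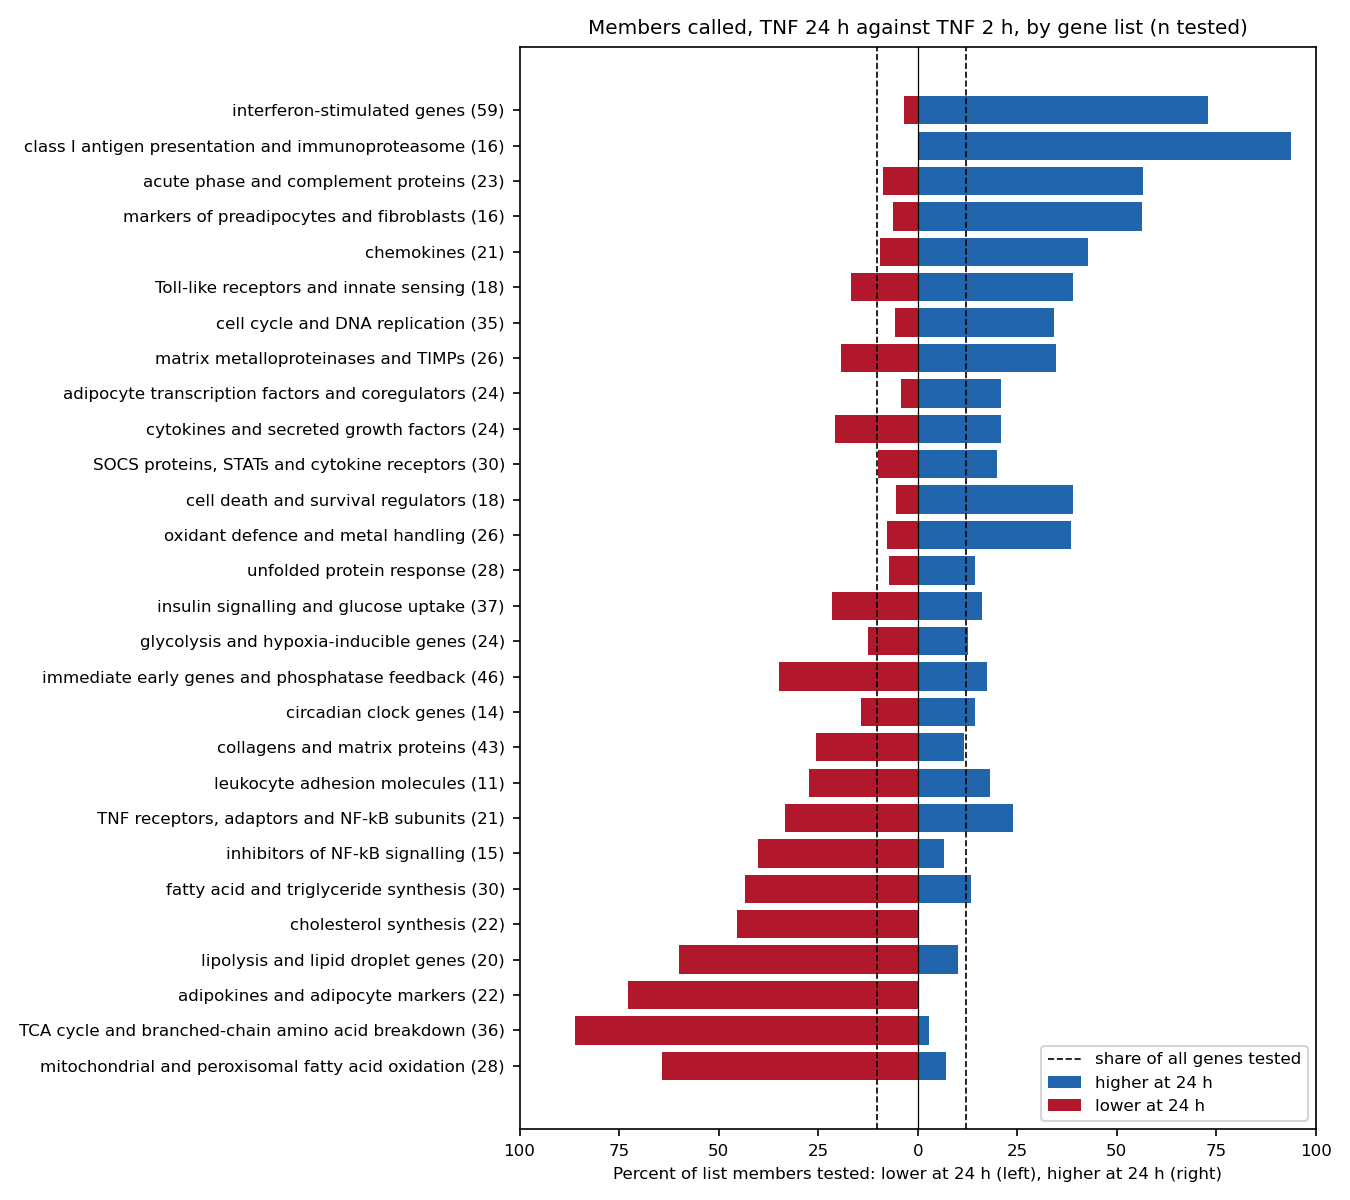
Percent of tested members called lower (red, left of 0) and higher (blue, right of 0) at TNF 24 h than at TNF 2 h for each gene list with at least 10 members tested, sorted by median difference. Dashed lines mark the 10.2% and 12% of all genes called; class I genes (15 of 16 higher) and citric acid cycle genes (31 of 36 lower) lie farthest out.

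Of 26 matrix metalloproteinases, their relatives and TIMPs 9 rose (5 with all 21 arrays) and 5 fell (Timp4, Adamts12, Adam12, Adamts4 and Timp3). Mmp3, stromelysin 1, had 9.73, 9.11 and 10.89 at 24 h, against 6.37, 5.83 and 7.95 at 2 h (3.20 ± 0.46). Timp1, an inhibitor of such proteases, had 12.12, 11.84 and 13.01 at 24 h, against 9.95, 9.41 and 10.51 at 2 h (2.36 ± 0.24). Timp4, its relative of adipose tissue, ran opposite, with 6.27, 6.65 and 6.40 at 24 h, against 9.28, 9.44 and 9.45 at 2 h, and 9.61 to 9.80 in control (-2.95 ± 0.14, limma adjusted p 6.02e-12). Among 43 collagens and matrix proteins 5 rose (Tnc, Col18a1, Col12a1, P4ha2 and Fbln2) and 11 fell, which is 11.6% and 25.6% of the list, against 12% and 10.2% of all genes. With all 21 arrays in the model 3 rose and 2 fell. The 5 became 3 without TNF 24 h replicate 3, TNF 2 h replicate 1 or TNF 2 h replicate 3. Tnc, the wound matrix protein tenascin C, rose by at least 2.30 ± 0.17, since its 2 h level is near background. Ogn, the small proteoglycan osteoglycin, fell by 1.85 ± 0.20.

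Markers of preadipocytes and fibroblasts rose in 9 of 16 cases and fell in 1, Dlk1, with a median of 0.402. The count of 9 was 4 with all 21 arrays. That of 1 was 0 with all 21 arrays, without TNF 24 h replicate 1 or 2, and without TNF 2 h replicate 1 or 3. Acta2, smooth muscle actin, had 11.34, 10.93 and 11.55 at 24 h, against 9.66, 9.76 and 9.28 at 2 h, and 8.93 to 9.04 in control (1.70 ± 0.19). Tagln, another smooth muscle marker, rose by 1.04 ± 0.16. Snai2, a mesenchymal transcription factor, rose by 1.01 ± 0.14 after an early fall, and was not called against control at 24 h (adjusted p 0.334).

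The difference between 24 h and 2 h under TNF was set against that under Dex. The 2 differences share no array. Of 12118 genes 2214 (18.3%) differed by a limma interaction test, 1214 (10%) with the TNF difference above the Dex difference and 1000 (8.25%) below it. With all 21 arrays 547 were called. Interferon-stimulated genes were above in 48 of 59 cases and below in 2, and citric acid cycle and branched-chain genes were below in 30 of 36 and above in 0 (1 at an unadjusted p below 0.05). These counts were 29 and 5 with all 21 arrays. Oasl2 differed by 4.64 under TNF and by -1.37 under Dex (limma interaction 6.01 ± 0.41, adjusted p 1.99e-09). Its Dex 24 h mean of 4.86 is near background, so its fall under Dex is a lower limit. Apoc3, a lipoprotein component, differed by -1.72 under TNF and by 3.41 under Dex (interaction -5.13 ± 0.33).

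For other genes the interaction did not pass. G0s2 differed by 1.61 under TNF and by 1.63 under Dex (interaction -0.02 ± 0.27, limma adjusted p 0.968), and Nfkbiz by -1.61 under TNF and by -1.39 under Dex (-0.22 ± 0.17, adjusted p 0.415). Lcn2 differed by 3.20 under TNF and by 4.24 under Dex (-1.04 ± 0.50, adjusted p 0.168). Irs1 (-0.37 ± 0.20, adjusted p 0.217) and Dbp (0.11 ± 0.20, adjusted p 0.781) did not pass either. Irf1, by contrast, differed by -1.97 under TNF and by 1.73 under Dex (-3.71 ± 0.15).

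**Figure D4:**
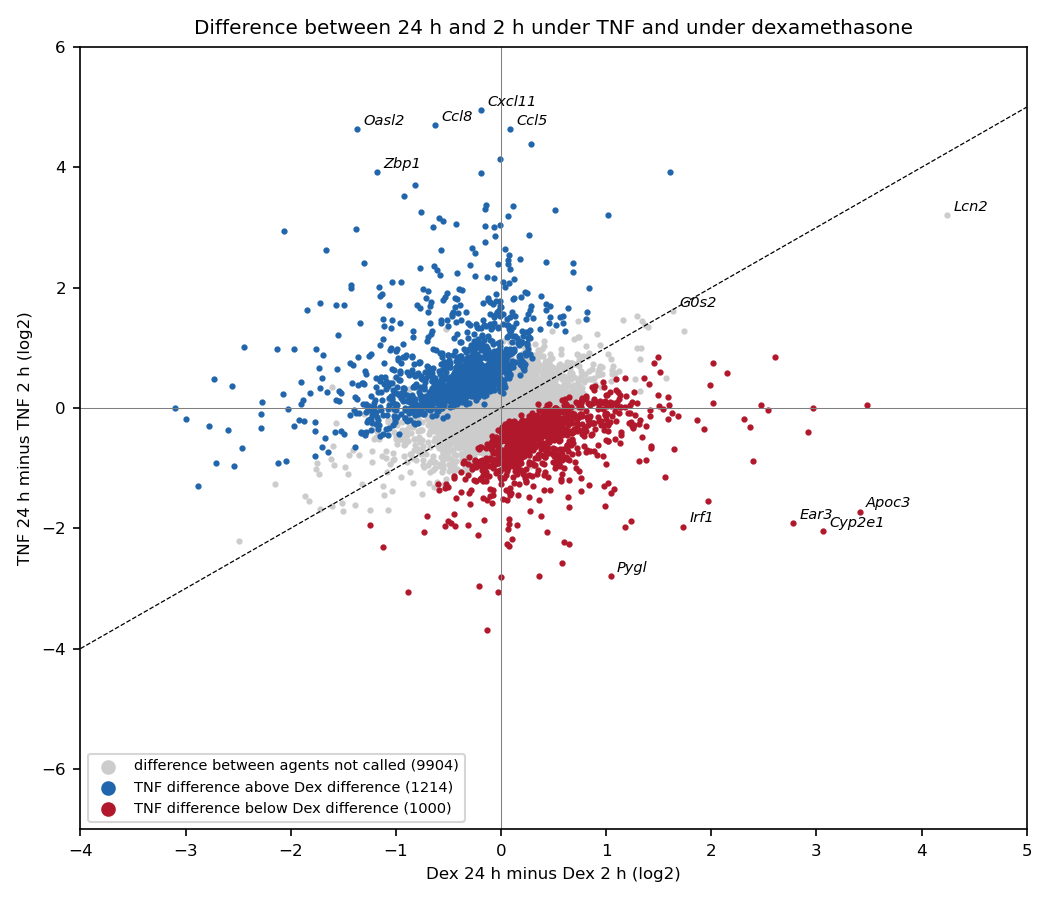
Difference between 24 h and 2 h for each gene tested under TNF (vertical axis, log2) against that under dexamethasone (horizontal axis, log2); blue and red points passed the interaction test, grey points did not, and the dashed line marks equal differences. Oasl2 lies at 4.64 under TNF and -1.37 under Dex, and G0s2 at 1.61 and 1.63 lies close to the line.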

How the data were processed

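The authors normalised the arrays by RMA, per the submitters' processing notes, and deposited 1 value per probe set and array, read here as log2 expression from the highest value of 15.06; the software version is not given in the sources used here. Of 45101 probe sets 34958 list 1 gene symbol, 932 several and 9211 none, in the platform annotation. Each of 18194 genes was represented by its probe set with the highest mean, and 12118 with at least 3 arrays above the median of all values (5.33) were tested. Other probe sets of a gene can differ in the opposite direction. Among called list members this held for Csf1, Cp, Ifnar2, Car3 and Cdkn1b, among others.

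A mean per group was fitted to 20 arrays, without TNF 6 d replicate 2, with limma 3.58.1 in R 4.3.3 (trend on mean expression, 13 residual degrees of freedom), and p-values were adjusted by Benjamini and Hochberg within each of 4 comparisons. An exact permutation test of 3 arrays against 3 cannot go below a two-sided p of 0.1. SEs pool the spread of all 7 groups. Precision is limited by 3 arrays per group.

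The members and the 30 gene lists were chosen with earlier results of these data known. Named genes are the 12 highest and 12 lowest called differences without overlap, the 3 largest called members of each list, a panel of markers, the 4 highest and 4 lowest interactions and the 4 largest of each class; they come to 125 genes. The calling was tested on simulated data. Alternatives covered the arrays in the model, the filter, probe set choice, normalisation, moderation, array weights, RNA quality, a replicate block, a 2-fold limit and leaving out each array.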

Additional observations from a re-analysis of the deposited data

Results flagged for a closer look

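Genes whose difference between 24 h and 2 h of treatment was not the same under TNF and under dexamethasone, by the limma interaction test, were examined among 37 genes (a fixed panel and the 4 largest interactions each way), and 24 were called, 13 with the TNF difference above the Dex difference and 11 below. The 8 largest were chosen for their size, and of the 29 panel genes alone 16 were called (9 above and 7 below), against 18.3% of all genes. Values are the TNF difference minus the Dex difference on the log2 scale. Late antiviral genes and chemokines stood highest, with Oasl2 at 6.01, Ccl8 at 5.33, Cxcl11 at 5.14, Zbp1 at 5.10 and Ccl5 at 4.55. Psmb9 had 3.75, Ifit3 3.42 and Irf7 1.22. The Dex 24 h means of Oasl2 (4.86) and Zbp1 (4.71) are near background, so their falls under Dex are lower limits. For Cxcl11 (5.04 and 5.22) and Ccl5 (5.16 and 5.08) both Dex means are near background, so a Dex difference could not be seen. Among transcription factors Cebpd had 1.82, Fos 1.53, Egr1 0.81, Pparg 0.56 and Cebpb 0.37. Of these, Cebpd, Egr1 and Cebpb were not called between the times under TNF (0.41, 0.51 and -0.14). Under Dex they differed by -1.41, -0.30 and -0.51.

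Below stood 4 genes that were higher at 24 h than at 2 h under Dex, namely Apoc3 at -5.13, Cyp2e1 at -5.12, Ear3 at -4.70 and Pygl at -3.84. The TNF 24 h levels of Cyp2e1, Ear3 and Pygl are near background, so these 3 values are lower limits on the size. Early TNF genes followed, with Irf1 at -3.71, Cxcl1 at -1.53, Tnfaip3 at -1.47, Junb at -0.94 and Jun at -0.63. Cebpa had -0.99 and Slc2a4 -0.66. The TNF difference of Cebpa was 0.20, not called, and its Dex difference was 1.19.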

How the results depend on the processing

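Counts of genes called, by limma, moved with the arrays in the model, with array weights and with a 2-fold limit. For TNF 24 h minus TNF 2 h, 2693 became 691 with all 21 arrays, 1149 with only the groups compared, 6193 with array weights (whose estimation did not converge) and 450 with a 2-fold limit. For TNF 2 h minus control, 1301 became 463, 846, 4785 and 381 in that order, and for TNF 24 h minus control 3115 became 1056, 1782, 6413 and 669. The interaction count of 2214 became 547 with all 21 arrays, 5347 with array weights and 827 with a 2-fold limit. Leaving out each array gave 2169 to 2737, 1004 to 1408, 2574 to 3166 and 1791 to 2405 in the same order of comparisons. Median centring gave 45.3% of calls higher against 54.0% for TNF 24 h minus TNF 2 h, and 40.1% against 51.5% for TNF 24 h minus control. Arrays with the same replicate number correlated at 0.134, -0.0564 and -0.0207 between TNF 24 h and TNF 2 h, so the numbers were not taken as pairs, and a replicate block gave 2917 calls. Socs3, not called, reversed to -0.10 with array weights. Vcam1, also not called, was 0.03 with cyclic loess, 0.00 with array weights, 0.09 without the arrays of high 3' minus 5' signal, and -0.12 to 0.16 when each array was left out (0.16 without TNF 24 h replicate 3 and 0.07 without TNF 2 h replicate 3). Of 111 named genes called that had a value in each of 20 settings, the 2-fold limit not among them, 75 kept their call in all of these. The cause of these shifts was not tested.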

Other observations

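Cell cycle and DNA replication genes also rose, in 12 of 35 cases, with a median difference of 0.214. Against them 2 fell (Cdkn1a and Cdkn2c, both inhibitors of cyclin-dependent kinases). The shares were 34.3% and 5.71%, against 12% higher and 10.2% lower of all genes. The 12 became 7 without TNF 2 h replicate 3 and 4 with all 21 arrays. Mcm5, part of the helicase loaded at replication origins, had 6.75 to 7.47 at 24 h, against 5.10 to 5.78 at 2 h (1.73 ± 0.30). Its partner Mcm6 had 8.15, 7.90 and 7.97 at 24 h, against 6.87, 7.07 and 6.51 at 2 h (1.19 ± 0.20). Among 26 genes of oxidant defence and metal handling 10 (38.5%) rose and 2 (7.69%) fell (Prdx3 and Cat). With all 21 arrays 1 rose by limma and 0 fell (2 at an unadjusted p below 0.05). Xdh, xanthine oxidoreductase, had 12.25, 12.14 and 11.96 at 24 h, against 10.53, 10.59 and 10.65 at 2 h (1.53 ± 0.14). Nqo1, a quinone reductase of the NRF2 programme, rose by 1.42 ± 0.16. Regulators of cell death rose in 7 of 18 cases and fell in 1 (Bcl10), with Casp12 (1.37 ± 0.16), Bcl2 (1.12 ± 0.18) and Mlkl, the effector of necroptosis (1.04 ± 0.11), leading, and the 7 became 4 with all 21 arrays.

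The unfolded protein response had 4 of 28 genes higher (Chac1, Creld2, Calr and Xbp1) and 2 lower (Dnajb9 and Edem1, the last not called without TNF 2 h replicate 2), shares near those of all genes, and the 4 became 2 without TNF 2 h replicate 1 and 1 with all 21 arrays. Dnajb9, a chaperone partner in the endoplasmic reticulum, fell by 0.82 ± 0.11. Of 14 clock genes 2 rose (Dbp and Per1) and 2 fell (Clock and Per2). Per2 was not called without TNF 24 h replicate 1 or 3 or TNF 2 h replicate 2. Of 24 genes of glycolysis and hypoxia 3 rose (Pdk4, Ankrd37 and Hk1) and 3 fell (Pfkfb3, Hk2 and Pfkm). These are 14.3% each way for the clock and 12.5% each way for glycolysis, near the 12% and 10.2% of all genes. Of 11 leukocyte adhesion molecules 2 (18.2%) rose (Madcam1 and Cd44) and 3 (27.3%) fell (Mcam, F11r and Icam1). Dbp, an output gene of the clock, had 11.13, 11.27 and 11.08 at 24 h, against 9.88, 10.51 and 9.96 at 2 h, and 11.14 to 11.25 in control (1.04 ± 0.14).

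In a wider list of 21 leukocyte markers on the array, which holds the 6 already described, 15 were too dim to test and 3 of the other 6 rose. S100a8, a calcium-binding alarmin, had 11.18, 10.97 and 11.88 at 24 h, against 9.44, 9.60 and 9.09 at 2 h (1.97 ± 0.24). Cd74, the class II invariant chain, had 8.58, 8.16 and 8.12 at 24 h, against 6.75, 6.51 and 6.89 at 2 h (1.57 ± 0.14), and Cd68 was the third. Of 10 endothelial markers 7 were too dim and limma called 0 of the other 3 (1 at an unadjusted p below 0.05).

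Later samples are shown for some late risers. At 6 d of TNF Ccl5 had 13.79, 12.40 and 13.60 and Ccl8 had 11.77, 9.59 and 11.92, the middle value being the outlying array. Rsad2 had 7.27, 7.22 and 6.76 at 6 d, all above the 6.04 to 6.45 of control and below its mean of 10.46 at 24 h. These differences from 6 d were not tested.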
